A study of Mus musculus with 2 samples.

Results

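The miR-26 family of the mouse comprises 3 microRNA (miRNA) genes, Mir26a-1, Mir26a-2 and Mir26b, each lying in an intron of a gene for a small phosphatase of the Ctdsp group. The 3 genes were taken by symbol from the 2202 miRNA genes of the count tables. They were measured in small RNA libraries (labelled with a size range under 30) from the adrenal gland of female B6CASTF1/J mice aged 18 to 20 months. B6CASTF1/J animals are first-generation hybrids of the strains C57BL/6J and CAST/EiJ. The samples form 1 untreated group with 2 biological replicates, entered under a shared donor record, so every spread and p-value given here measures only the difference between these samples, which may be technical. No other age, sex, strain or tissue was analysed here.

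An intronic miRNA is often transcribed with its host gene. The enzyme Drosha cuts the hairpin out of the transcript, Dicer removes its loop, and an arm of the resulting duplex (5p or 3p) is loaded into an Argonaute protein. The loaded strand finds its target mRNAs mainly through the seed, bases 2 to 8. The miR-26 family is known from differentiated tissues, where it represses growth and cell cycle genes, among them Ezh2, the histone methyltransferase of Polycomb repressive complex PRC2. Its hosts Ctdsp1, Ctdsp2 and Ctdspl encode small C-terminal domain phosphatases, which act with the repressor REST in silencing neuronal genes outside neurons.

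The mature sequences show which members can be told apart in a count table. They are given as RefSeq lists them (GRCm38.p6, all on the plus strand), 5′ to 3′, with the seed in capitals.
miR-26a-5p (Mir26a-1 and Mir26a-2): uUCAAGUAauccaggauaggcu
miR-26b-5p (Mir26b): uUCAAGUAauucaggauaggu
miR-26a-1-3p (Mir26a-1): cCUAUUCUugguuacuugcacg
miR-26a-2-3p (Mir26a-2): cCUGUUCUugauuacuuguuuc
miR-26b-3p (Mir26b): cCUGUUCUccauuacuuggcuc
The 5p arm of Mir26a-1 and that of Mir26a-2 are the same 22 bases. The 5p arm of Mir26b has 21 bases and differs from them by C11U and C21U, counted from the 5′ end with the miR-26a base first. All 3 genes therefore share the 5p seed UCAAGUA, and no other mature miRNA in the RefSeq table has it. The 3p arms differ more, by 4 to 8 of 22 bases, and only those of Mir26a-2 and Mir26b share a seed, which miR-6932-3p and miR-7039-3p also carry. The differences between the 3p arms of Mir26a-1 and Mir26a-2 are A4G, G11A, C19U, A20U, C21U and G22C, and one of them lies in the seed.

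The hairpins, with both arms in capitals, show how far the shared stretch reaches beyond the 5p arm.
Mir26a-1: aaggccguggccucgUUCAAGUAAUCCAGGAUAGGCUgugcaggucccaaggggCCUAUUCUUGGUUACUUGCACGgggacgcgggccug
Mir26a-2: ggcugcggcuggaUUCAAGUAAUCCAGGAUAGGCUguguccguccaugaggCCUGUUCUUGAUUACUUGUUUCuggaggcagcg
Mir26b: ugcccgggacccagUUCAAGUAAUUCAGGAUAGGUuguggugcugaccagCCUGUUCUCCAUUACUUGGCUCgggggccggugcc
Mir26a-1 and Mir26a-2 share 25 bases without a break, which begin at the first base of the 5p arm and run 3 bases into the loop. A read that begins at this base becomes specific to a hairpin only at a length of 26 bases. A read that begins 1 base earlier is already specific at 15 bases, the shortest length searched, and so are reads of every other miR-26 arm. The longest stretch that Mir26b shares is 11 bases with Mir26a-1 and 10 bases with Mir26a-2. Among the hairpins of all 2202 counted genes, 8 of the 73 windows of 18 bases in Mir26a-1 and 8 of the 67 in Mir26a-2 occurred in a second gene, in each case the other miR-26a gene. These included all 5 windows within the 5p arm and none within the 3p arm. None of the 68 windows of Mir26b occurred in another miRNA gene. The search covered annotated hairpins and not the whole genome.

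**Figure D1:**
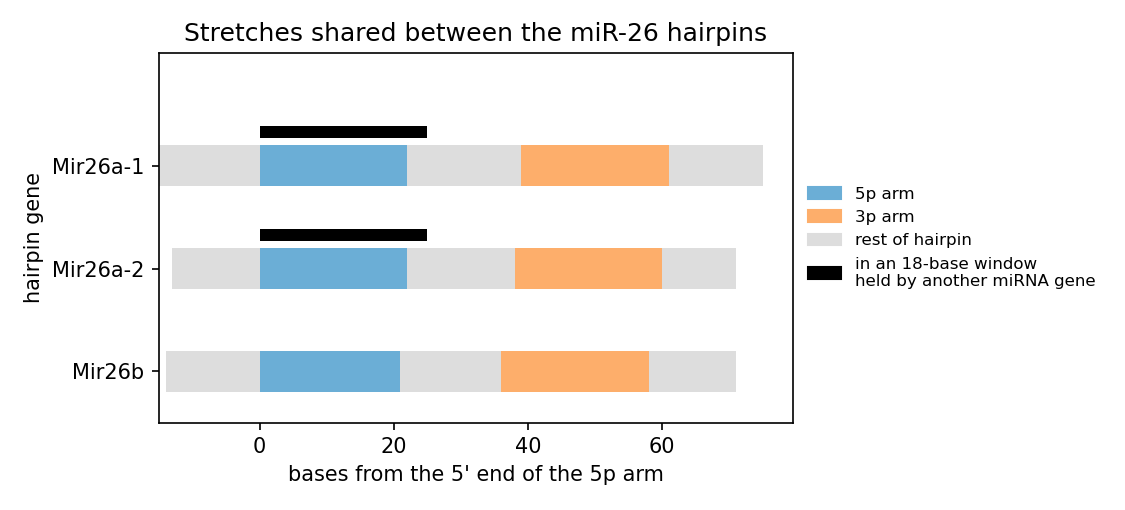
Map of the 3 miR-26 hairpins, aligned at the 5′ end of the 5p arm (horizontal axis in bases), with the arms coloured and black bars over bases in an 18-base window that another miRNA gene also holds. The bars cover the 25 bases that Mir26a-1 and Mir26a-2 share, and Mir26b has none.

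Apart from the arms, the hairpins are alike in form. They are 90 bases (Mir26a-1), 84 bases (Mir26a-2) and 85 bases (Mir26b) long, with a GC content of 60.0%, 53.6% and 58.8%. RNAfold gave them 34, 32 and 33 base pairs and minimum free energies of -49.4, -44.5 and -43.5 kcal/mol.

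Positions refer to mm10 with GENCODE M21, in which no gene other than the host overlaps a member on either strand. Mir26a-1 (ENSMUSG00000065513.1) lies at chr9:119031796-119031885 in intron 5 of a Ctdspl transcript with 8 exons (intron 4 of another with 7). Mir26a-2 (ENSMUSG00000065430.1) lies at chr10:126995530-126995613 in intron 5 of a Ctdsp2 transcript, also with 8 exons. Mir26b (ENSMUSG00000065468.1) lies at chr1:74394310-74394394 in intron 4 of a Ctdsp1 transcript with 7 exons. All 3 are on the strand of their host. The introns differ in size, 3283 bases in Ctdspl, 1946 in Ctdsp2 and 564 in Ctdsp1. Mir26b starts 234 bases after the upstream exon, against 1543 bases for Mir26a-1 and 1621 for Mir26a-2. The host mRNAs were not measured in these libraries.

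Own-strand counts over all miRNA genes totalled 2590051 in replicate 1 and 2291030 in replicate 2, and levels are given per 1000000 of these counts (CPM). Reads that aligned to several places numbered 2357429 and 1958627. They are held in a row of their own and enter no gene count. No miRNA marks adrenal cortex alone. Among the other listed cell types, neuroendocrine Mir375 and Mir7b summed to 61080 ± 6650 CPM (SD, n = 2) and endothelial Mir126a reached 49082 ± 22161 CPM (SD, n = 2). Leukocyte markers summed to 3000 ± 63.1 CPM (SD, n = 2), and striated muscle markers to 597 CPM in replicate 1 and 81.2 CPM in replicate 2, where Mir208a had no counts.

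Mir26b supplied nearly all counts assigned to the family and was among the miRNA genes with the most counts. Reads that aligned to several places are outside this ranking. It had 48015 counts in replicate 1, which is 18538 CPM (Wilson 95% interval 18375 to 18703). In replicate 2 it had 52882 counts, which is 23082 CPM (22888 to 23277). Its mean was 20810 ± 3213 CPM, or 2.08% ± 0.321 of all counts (SD, n = 2), rank 15 of the 2202 genes. Both libraries were high, and replicate 2 was the higher.

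The Mir26a genes were counted at a far lower level. Mir26a-1 had 419 counts in replicate 1, or 162 CPM (Wilson 95% interval 147 to 178), and 145 counts in replicate 2, or 63.3 CPM (53.8 to 74.5). Its mean was 113 ± 69.6 CPM (SD, n = 2), rank 182. Replicate 1 was the higher library, opposite to Mir26b. Mir26a-2 had 248 counts in replicate 1, or 95.8 CPM (84.6 to 108), and 123 counts in replicate 2, or 53.7 CPM (45.0 to 64.1). Its mean was 74.7 ± 29.7 CPM (SD, n = 2), rank 200. All 3 genes reached the detection limit of at least 10 counts in each library, which 339 of the 2202 genes met. PCR copies of a molecule are counted separately, so the Wilson intervals hold counting error and nothing else.

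The order Mir26b, Mir26a-1, Mir26a-2 held in each library, with the first step far larger than the second. Mir26b had 115 times the counts of Mir26a-1 in replicate 1 and 365 times in replicate 2. Mir26a-1 had 1.69 times the counts of Mir26a-2 in replicate 1, where their Wilson intervals did not overlap, and 1.18 times in replicate 2, where they did. Their means differed by less than the SD of Mir26a-1. Both genes were lower in replicate 2, so this SD does not measure the spread of their ratio within a library. Because a read of miR-26a-5p matches both Mir26a hairpins, such reads can be among those that aligned to several places. The gene counts of Mir26a-1 and Mir26a-2 therefore do not give the level of miR-26a-5p, and how many of the reads with several places came from it was not tested. The arms within a gene were not resolved in the tables.

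**Figure D2:**
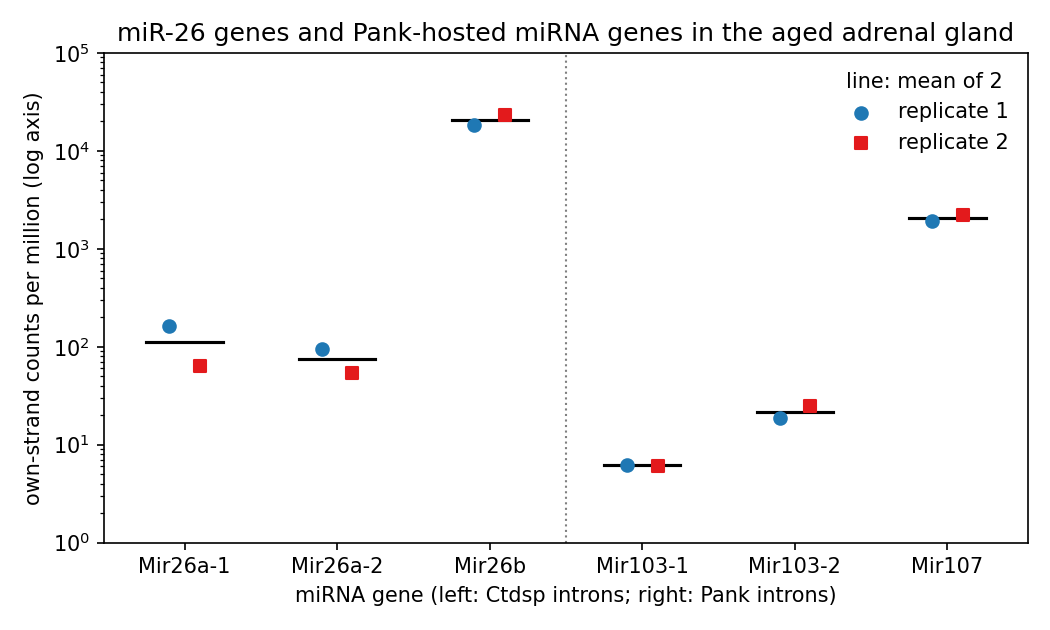
Level of each miR-26 gene and of the Pank-hosted Mir103 and Mir107 genes (vertical log axis, own-strand CPM) in both libraries, with a line at the mean of 2. Mir26b lies at 18538 and 23082 CPM, above Mir26a-1 (162 and 63.3 CPM) and Mir26a-2 (95.8 and 53.7 CPM), and Mir107 lies above both Mir103 genes.

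As shares of the family, Mir26b held 98.6% of the 48682 miR-26 counts in replicate 1 (Wilson 95% interval 98.5 to 98.7) and 99.5% of the 53150 in replicate 2 (99.4 to 99.6). Mir26a-1 held 0.861% (0.782 to 0.947) and 0.273% (0.232 to 0.321), and Mir26a-2 held 0.509% (0.450 to 0.577) and 0.231% (0.194 to 0.276). These shares do not depend on library scaling, but reads that aligned to several places are outside them. For each gene the intervals of the 2 libraries did not overlap. Between the Mir26a genes alone, Mir26a-1 held 62.8% of their 667 counts in replicate 1 (59.1 to 66.4) and 54.1% of their 268 in replicate 2 (48.1 to 60.0), and here the intervals overlapped. The counts assigned to the family summed to 18796 CPM in replicate 1 and 23199 CPM in replicate 2, a mean of 2.10% ± 0.311 of all counts (SD, n = 2). No opposite-strand read was counted at any of the 3 genes, and ignoring strand left their counts as they were.

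The reads of the libraries were then compared gene by gene, a comparison of these 2 libraries and not of conditions. In an exact binomial test of each gene's counts given their sum (two-sided, over the whole table), with TMM scaling and Benjamini-Hochberg adjustment, all 3 miR-26 genes differed. The background is high, since 62.7% of the 367 miRNAs tested differed at an adjusted p of 0.05, so 3 of 3 is not a result about the family. Mir26a-1 was 2.49-fold higher in replicate 1, a log2 ratio of replicate 2 over replicate 1 of -1.31 (95% interval -1.60 to -1.04; adjusted p = 4.5e-23, exact test). Mir26a-2 was 1.74-fold higher in replicate 1, a log2 ratio of -0.79 (-1.12 to -0.48; adjusted p = 7.0e-07, exact test). Over all miRNAs tested, 32.4% were called higher in replicate 1. Mir26b was 1.28-fold higher in replicate 2, a log2 ratio of 0.35 (0.34 to 0.37), with an adjusted p in the exact test too small for double precision. In that direction 30.2% were called.

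Against the spread between these libraries, none of the 3 differences passed. The test above has counting error as its only spread. With the common dispersion that edgeR estimates from both libraries, a biological coefficient of variation of 0.432, edgeR's exact test gave p = 0.157 for Mir26a-1, 0.396 for Mir26a-2 and 0.695 for Mir26b, and every adjusted p was 1.0. By that rule 1.36% of the 367 miRNAs were called. The dispersion was estimated from the same differences that it was used to test, so only extreme differences could pass. A gene that did not pass is therefore not shown to be alike in both libraries. By absolute log2 ratio Mir26a-1 ranked 43 of 367, Mir26a-2 ranked 107 and Mir26b ranked 225, and the median absolute log2 ratio of all miRNAs tested was 0.46. Mir26b thus differed less than the median miRNA, and both Mir26a genes differed more.

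**Figure D3:**
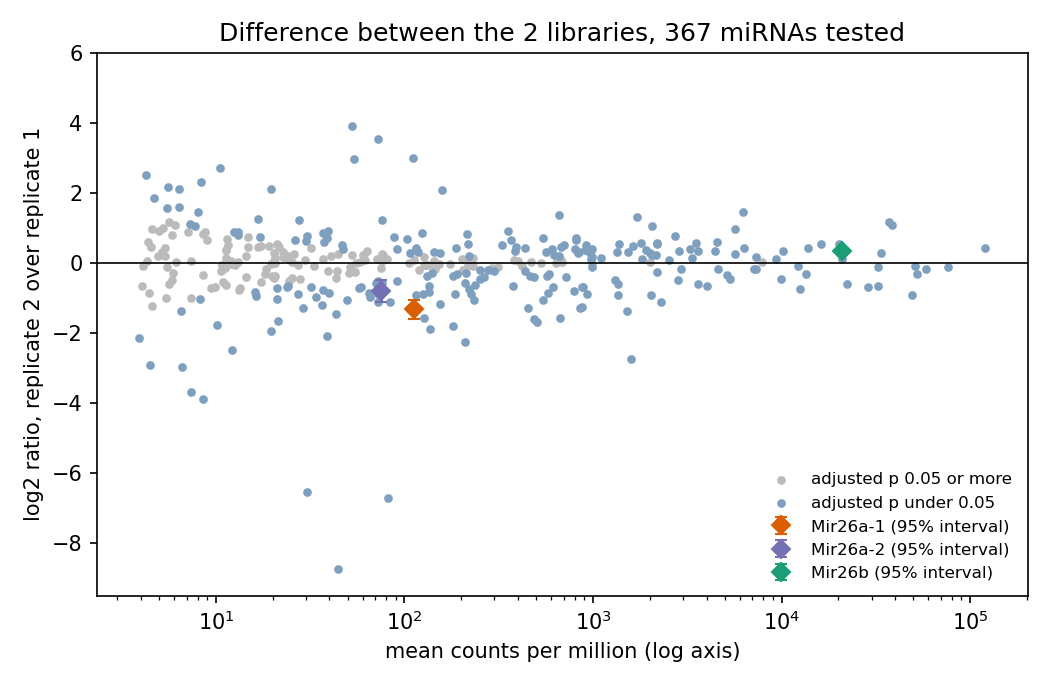
Log2 ratio of replicate 2 over replicate 1 (vertical) against mean level in CPM (horizontal log axis) for the 367 miRNAs tested, coloured by the exact binomial test, with the miR-26 genes as diamonds and their 95% intervals. Mir26a-1 (-1.31) and Mir26a-2 (-0.79) lie below zero and Mir26b (0.35) lies above it, all within the cloud of other miRNAs.

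The miRNA genes nearest to each member were those with the smallest larger difference in log2(CPM + 1) over the 2 libraries. With 2 libraries this likeness mostly reflects the level and describes these samples only. Nearest to Mir26b were the imprinted Mir127 (20393 and 21681 CPM in replicates 1 and 2), the Hox-cluster Mir10b (16633 and 23507 CPM) and Mir744 (13303 and 18987 CPM), with larger differences of 0.14, 0.16 and 0.48. Nearest to Mir26a-1 were the hypoxia-inducible Mir210 (191 and 62.0 CPM), Mir374b (151 and 78.6 CPM) and Mir6236 (217 and 57.2 CPM), with differences of 0.24, 0.31 and 0.42. Mir374b overlaps the antisense Mir374c, and with strand ignored its 392 and 180 counts became 1 and 0. Nearest to Mir26a-2 were Mir323 (94.6 and 49.8 CPM), Mir186 (86.5 and 58.5 CPM) and the erythroid Mir144 (91.5 and 59.8 CPM), with differences of 0.11, 0.15 and 0.15.

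The Pank-hosted miRNA family resembles the miR-26 family in layout, with 3 genes in the pantothenate kinase genes Pank3 (Mir103-1), Pank2 (Mir103-2) and Pank1 (Mir107), whose products begin coenzyme A synthesis. In it, too, one mature arm is the same at a pair of genes and the remaining gene has a close variant. The arms are given as RefSeq lists them, with the seed in capitals.
miR-103-3p (Mir103-1 and Mir103-2): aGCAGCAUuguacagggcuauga
miR-107-3p (Mir107): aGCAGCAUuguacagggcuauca
Here too the single gene held most of the counts assigned to the family. A read of miR-103-3p matches both Mir103 hairpins, so such reads can be among those that aligned to several places. The arms of miR-103-3p and miR-107-3p differ only near the 3′ end, so a shorter read of either can match all 3 hairpins. The gene counts therefore do not give the levels of miR-103-3p and miR-107-3p. Mir107 had 5003 counts in replicate 1 and 5025 in replicate 2, or 2062 ± 185 CPM (SD, n = 2). Mir103-1 had 16 and 14 counts, and Mir103-2 had 48 and 57. Mir107 thus held 98.7% and 98.6% of its family's counts. It had 78.2 and 70.8 times the counts of the Mir103 genes together, against 72.0 and 197 times for Mir26b over the Mir26a genes. A difference between the families in how far this ratio varied was not tested.

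Across the tables, 1018 gene symbols matched a RefSeq mature sequence. The table does not list every arm, so each listed sequence was looked for in the hairpins of all counted genes. By this search 113 genes held a listed sequence that another gene's hairpin also held, and for 905 no such sequence was found. The other 1183 symbols matched none and are in neither set, among them Mir143 at 22301 CPM. The levels below therefore do not cover all detected genes. Detected genes of the first set had a median of 66.7 CPM (48 genes, quartiles 21.2 and 218), and those of the second a median of 155 CPM (258 genes, quartiles 28.3 and 991). Mir26a-1 and Mir26a-2 lay between the median and the upper quartile of the first set, and Mir26b lay above the upper quartile of the second. Symbols that differ only in a final -1 or -2 made 52 pairs, and for 41 of them a listed mature sequence was found in both hairpins. An arm that is not listed cannot be found this way. By summed level the Mir26a pair, at 187 ± 99.4 CPM (SD, n = 2), ranked 10 of the 52, and it ranked 9 in replicate 1 (258 CPM) and 13 in replicate 2 (117 CPM). The leading pairs were Mirlet7f-1 with Mirlet7f-2 at 3871 CPM, Mirlet7c-1 with Mirlet7c-2 at 2494 CPM and Mir92-1 with Mir92-2 at 1044 CPM.

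**Figure D4:**
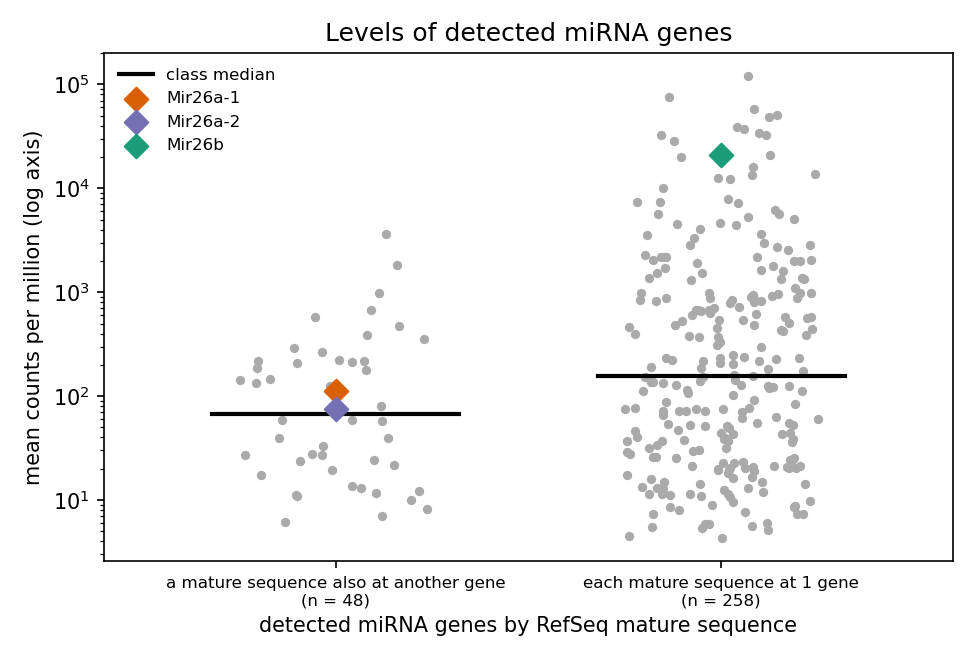
Mean level (vertical log axis, CPM) of detected miRNA genes that matched a RefSeq mature sequence. They are split into those with a listed sequence also found at another gene (48 genes, left) and those without one (258 genes, right). A line marks each median. Mir26a-1 and Mir26a-2 lie above the left median of 66.7 CPM, and Mir26b lies far above the right median of 155 CPM.

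The 5 other listed miRNAs that have been described as repressors of Ezh2, a list that is not complete, were counted below Mir26b, with means from 17.3 CPM (Mir138-2) to 1594 CPM (Mir214). Of these 5, 3 were higher in replicate 1 and 1 was higher in replicate 2 in the exact binomial test, against 62.7% called over all miRNAs tested (32.4% and 30.2% by direction), with a median log2 ratio of -0.83 beside 0.01 over all miRNAs tested. Mir101b was counted 2014 times in replicate 1 and 542 times in replicate 2, a log2 ratio of -1.68 (-1.82 to -1.54), and Mir101a 452 and 219 times, a log2 ratio of -0.83 (-1.07 to -0.60). Mir214, a miRNA of mesenchymal cells, stood at 2780 CPM in replicate 1 and 407 CPM in replicate 2. Endothelial Mir126a and all 4 striated muscle markers tested were also higher in replicate 1, and their part in these differences was not tested. Mir138-2, with 34 and 49 counts, was higher in replicate 2 (log2 ratio 0.73). For Mir138-1, with 203 and 189 counts, the exact test gave an adjusted p of 0.537 at a log2 ratio of 0.11. Mir138-1 and Mir138-2 also share a mature sequence, and Mir101a holds a listed one that was found at another gene. Reads of these sequences can be among those that aligned to several places. With the dispersion of both libraries, which was estimated from the same differences, none of the 5 passed. The lowest adjusted p was 0.163 for Mir214 (edgeR exact test).

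Whether Ezh2 and the host genes carry matches to the shared 5p seed was read from the longest annotated 3′ UTR of each gene in GENCODE M21. The strings searched, on the mRNA strand only, were TACTTGA, the reverse complement of the seed in DNA letters, and TACTTGAA, which contains it. Ezh2 held a single match, to the longer string, in a 3′ UTR of 402 bases. Ctdsp2 held a single match, to the shorter string, in 3489 bases, in a transcript other than the one given above as holding Mir26a-2. These matches are shown in capitals with the 14 bases before them and, in Ctdsp2, the base after.
Ezh2: atttgaataaagaaTACTTGAA
Ctdsp2: ccaagtgttgctctTACTTGAt
Neither string was found in the 3′ UTRs of Ctdsp1 (1701 bases) or Ctdspl (3349 bases). Of 3′ UTRs within 20% of those lengths, 10.9% and 22.4% held the shorter string. Of 3′ UTRs within 20% of the length of that of Ezh2, 1.29% held the longer string, and of those within 20% of the length of that of Ctdsp2, 23.4% held the shorter one. Over all 20985 genes with a 3′ UTR the shares were 4.16% and 9.66%. A match describes the sequence and is not a measured site.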

How the data were processed

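Small RNA reads from 2 adrenal gland libraries were analysed as deposited: whole-number counts for each miRNA gene, with strand ignored, on its own strand and on the opposite one. Build mm10 and annotation GENCODE M21 are given per the deposited notes; which programs aligned, trimmed and counted the reads is not given in the sources used here. The 4 leading rows that name no gene (73.6% and 67.2% of reads) were left out. All 2202 identifiers matched GENCODE M21. The own-strand column was the stranded one with the larger total. CPM are per 1000000 own-strand counts, and a count of 0 allows 3 counts (1.16 and 1.31 CPM).

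Libraries were compared with an exact binomial test given each gene's summed count (two-sided; scipy 1.17.1) on genes with a summed count of at least 20, scaled by TMM (edgeR 4.0.16; factors 1.01 and 0.987 over those genes), with Benjamini-Hochberg adjustment and a prior count of 0.5 in log2 ratios. edgeR's quasi-likelihood test needs replicates within each side and was not fitted. The test was also run on simulated counts with counting error only (Poisson) and known library totals (365 genes tested). It called 81 of 92 genes changed by 1 log2 unit, 106 of 106 changed by 2, and 5 of 167 unchanged. That setting is the one the test assumes. These rates therefore do not carry over to the real libraries, whose biological coefficient of variation was 0.432. Alternatives were DESeq2 1.42.0 size factors, total counts, strand ignored, other minimums (1 and 200), a prior count of 5, another CPM denominator, single libraries and edgeR's exact test with common dispersion. Mature and hairpin sequences came from RefSeq (GRCm38.p6); hairpins for the window search came from GENCODE M21 transcripts, and folding was by RNAfold 2.7.2. Genes named were the 3 members, the 3 nearest detected genes to each, all of the Pank and Ezh2 lists, and the 3 leading -1/-2 pairs. Cell type markers are named from the marker lists, Mir374c as an overlapping gene, and Mir7-1 and Mir7-2 for symbols like those of listed markers. Members and lists were chosen with earlier results of these data known. Of the listed markers, Mir7a-1, Mir7a-2 and Mir142hg had no match by symbol. Genes under the symbols Mir7-1 (654 and 382 counts) and Mir7-2 (187 and 99 counts) were counted but are not in the neuroendocrine sum. The epithelial markers summed to 44.4 CPM in replicate 1 and 254 CPM in replicate 2. Of these, 3 of 4 tested were called higher in replicate 2, against 30.2% over all miRNAs tested. Mir429, with 19 and 8 counts, went the other way (log2 ratio -0.99) and was not called. The kidney markers summed to 7271 ± 792 CPM, of which Mir30a, also found in many other tissues, held 7181. Liver Mir122 reached 662 ± 56.5, erythroid 620 ± 269 and smooth muscle 24359 ± 5774 CPM (SD, n = 2).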

Additional observations from a re-analysis of the deposited data

Results flagged for a closer look

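Reads appeared in a class outside the gene counts. Those that aligned to several places numbered 2357429 in replicate 1 and 1958627 in replicate 2, or 0.910 and 0.855 per read counted in a gene. The limit of 3 that a count of 0 allows is a number of reads, and both read numbers lie far above it. The 5p arm that Mir26a-1 and Mir26a-2 share is a sequence whose reads can fall into this class, and its part in it was not tested.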

How the results depend on the processing

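No result changed direction under the alternatives, and 42 of 50 alternative values kept their side of the threshold or stayed within the spread. Part of this count was fixed in advance. With 2 libraries, a value from a single library always lies within the SD of the mean. The share held by Mir26b cannot change with the denominator or with unchanged counts, and the prior count does not enter the p-values. With reads that align to several places added to the denominator, Mir26a-1 had 59.4 CPM (within its SD), Mir26a-2 39.5, Mir26b 11074 and the family 11173 CPM. With strand ignored, the family had 24143 CPM, since the library totals are smaller. With edgeR's common dispersion, the log2 ratios of -1.31 (Mir26a-1), -0.79 (Mir26a-2) and 0.35 (Mir26b) no longer passed (adjusted p = 1.0 each), and the count of differing miRNAs was 5 in place of 230, with 20 at an unadjusted p under 0.05. That dispersion was estimated from the tested differences themselves, so only extreme differences could pass. Under the other settings the log2 ratio ranged from -1.45 to -1.29 for Mir26a-1, from -0.93 to -0.77 for Mir26a-2 and from 0.22 to 0.37 for Mir26b, and every binomial test passed. TMM over genes with at least 1 count moved all log2 ratios by -0.13, and 85 of 219 calls were then higher in replicate 2, against 111 of 230. With DESeq2 size factors they were 93 of 226. No fit without a replicate was possible for the ratios, since each side is 1 library. For Mir26a-1 and Mir26a-2, counts of 123 to 419 limit the precision.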
